A study of Mus musculus with 8 samples.

Results

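The nuclear genes of respiratory complexes II to V and of cytochrome c were followed in mouse germinal vesicle (GV) oocytes, the immature oocytes in which the nucleus is still intact. The members are the probe sets with exactly 1 gene symbol that begins with Sdh and ends in a to d, or begins with Uqcr, Cox4 to Cox8 or Atp5, or is Cyc1 or Cycs. This gave 96 of the 45037 probe sets that are not controls, standing for 48 genes: 4 of complex II, 9 of complex III, 1 of cytochrome c, 17 of complex IV and 17 of complex V. Total RNA of 4 samples of GV oocytes held 48 h in milrinone and of 4 samples of untreated GV oocytes was hybridised as biotin-labelled cRNA to 8 single-colour arrays. Milrinone inhibits the cAMP phosphodiesterase that the oocyte uses, and so keeps the oocyte arrested at the GV stage. The labels give no strain, no age and no culture without milrinone, so drug, culture and elapsed time cannot be told apart, and they leave unsaid whether replicates were separate animals or collections. A p-value therefore reflects only how these 8 samples vary, and that variation may be technical.

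Complex II (succinate dehydrogenase) feeds electrons from the citric acid cycle into ubiquinone, complex III passes them to the small carrier cytochrome c, complex IV (cytochrome c oxidase) hands them to oxygen, and complex V (ATP synthase) uses the resulting proton gradient to make ATP. All subunits of complex II are encoded in the nucleus, whereas complexes III to V combine nuclear subunits with a few encoded by mitochondrial DNA. Several subunits of complex IV exist as alternative isoforms from separate genes, one widely expressed and another used mainly in heart and skeletal muscle or in testis. The oocyte lives chiefly on oxidative phosphorylation, fed by pyruvate from the surrounding cumulus cells.

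A probe set counts as listed on an array where the deposited table gives it a value, and 48.4% to 58.7% of an array's cells were empty. Intensities are linear and, with equal cRNA on each array, show a gene's part of the RNA of its sample. Differences are milrinone minus untreated on the log2(intensity + 16) scale, and for dim probe sets they come out too small. In bulk samples, fewer cells of a type and less RNA per cell cannot be told apart. Markers of granulosa, cumulus and theca cells, the somatic cells around the oocyte, were listed for 11 to 18 of 42 probe sets in milrinone and for 25 to 34 in untreated samples. Their summed intensity was 2861 to 3985 in milrinone, against 22324 to 24917 on untreated 2 to 4 and 98052 on untreated 1. Amhr2, Cyp17a1, Fst and Star were empty on all milrinone arrays and listed on all untreated ones, and Amh was empty on all 8. Other markers of the list differed less. A probe set of Nr5a2 had 836 to 1193 in milrinone and 1125 to 1494 on untreated 2 to 4. A probe set of Cyp11a1 had 181 to 226 in milrinone and 127 to 212 where listed in untreated samples, while another was empty in milrinone. Kitl overlapped between the groups where listed. All 12 probe sets of the oocyte markers, among them Gdf9 and Zp3, were listed on all 8 arrays, with sums of 116892 to 126376 in milrinone and 115083 to 135697 in untreated samples. Markers of blood, stroma and endothelium summed to 569 to 734 in milrinone and 1434 to 9923 in untreated samples, again with untreated 1 highest. Of these, Col1a1, Col1a2, Dcn and Lyz2 were empty in milrinone, whereas Kdr, Tek and Cd68 overlapped between the groups. Kdr had 355 to 456 in milrinone and 391 to 555 in untreated samples. Untreated 1 was unlike the rest (median correlation to them 0.930), so many differences are also given without it. The Actb control, a gauge of RNA quality, gave 3'-over-5' ratios from 11.6 to 20.4 in milrinone and from 6.87 to 13.1 in untreated samples. The Gapdh control gave 6.09 to 8.25 in milrinone and 6.23 to 7.68 in untreated samples. The part of RNA quality in the results was not tested.

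Most respiratory chain genes had close values in both groups, and no member passed the test. Of the 96 member probe sets 71 were listed on at least 3 of 4 arrays of each group and so were tested, and all 71 were listed on all 8 arrays. They stand for 43 of the 48 genes. With limma and Benjamini-Hochberg adjustment over 16288 probe sets, 0 of the 71 were higher and 0 were lower at an adjusted p under 0.05, where 0.00% of all tested probe sets were called higher and 0.117% lower, and the lowest adjusted p of a member was 0.402. Without untreated 1 the members again gave 0 and 0, beside 0.00614% higher and 0.417% lower of all tested. At an unadjusted p under 0.05 there were 4 higher and 7 lower member probe sets (5.63% and 9.86%), beside 5.62% and 4.0% over all tested probe sets. The 4 milrinone arrays lay wholly above the untreated ones for 3 member probe sets (4.23%, background 5.06%) and wholly below for 5 (7.04%, background 2.74%). With each gene taken by its brightest tested probe set, the median difference was -0.0030 over the 43 genes, with 21 above 0 and 22 below, beside 0.066 over 9454 tested genes. The split depended on the scaling and on untreated 1: 13 were above 0 and 30 below with median centring, 8 and 35 after quantile normalization, and 27 and 16 without untreated 1. Over all 9454 tested genes, 5942 were above 0 and 3512 below, or 5363 and 4091 without untreated 1. Complex I genes had a median of 0.013 over 41 genes and mitochondrial ribosomal protein genes one of 0.029 over 74. By complex the median was -0.023 for complex II, -0.013 for complex III, 0.052 for complex IV and -0.043 for complex V. Over every tested probe set the median was 0.063 as deposited and -0.13 after quantile normalization, which gave medians of -0.15 for the members, -0.15 for complex II, -0.18 for complex III, -0.0067 for complex IV and -0.24 for complex V. Without untreated 1 the medians were -0.053 for complex II, -0.036 for complex III, 0.099 for complex IV and 0.025 for complex V.

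**Figure D1:**
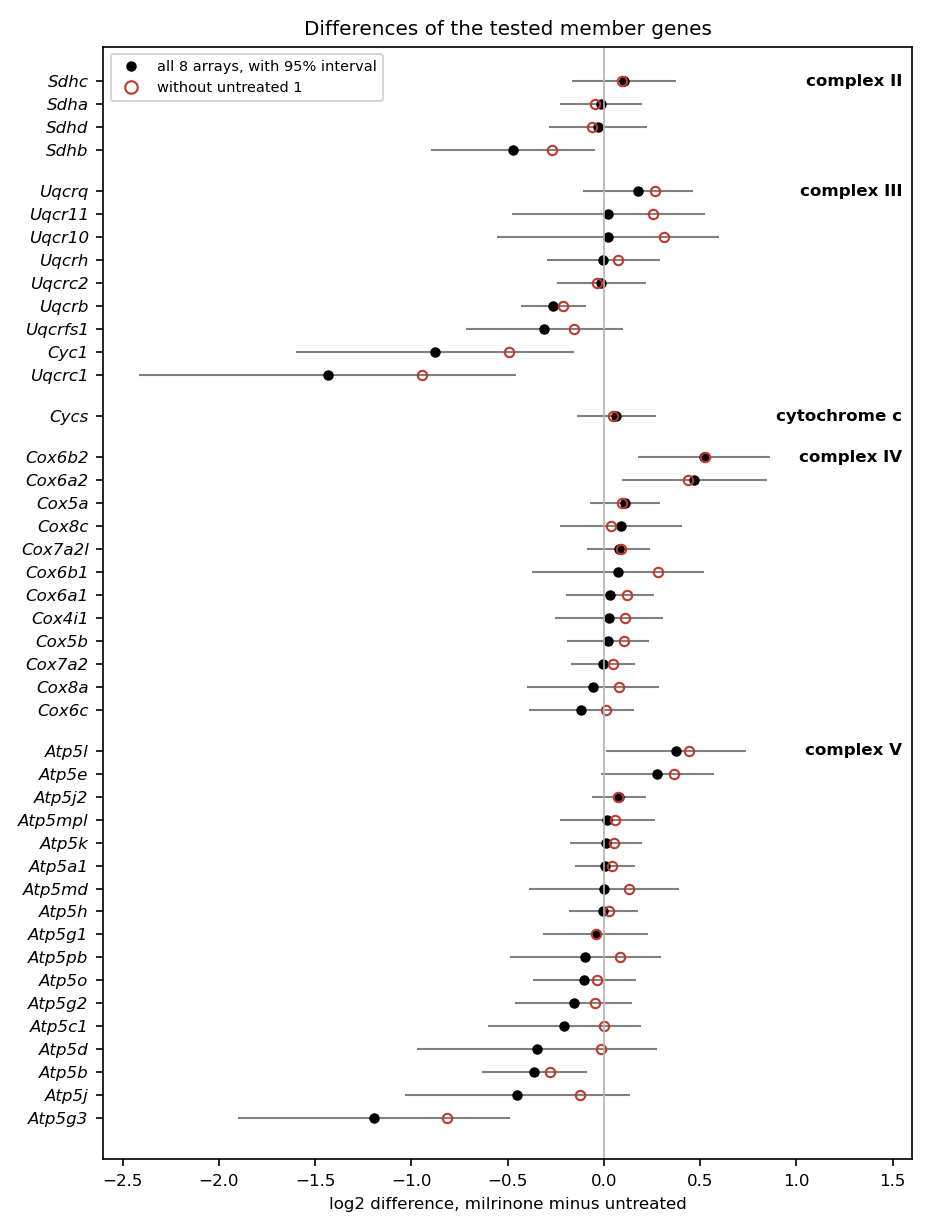
Log2 difference (milrinone minus untreated, horizontal axis) of the 43 tested member genes, each by its brightest probe set and grouped by complex; black points with bars are the limma estimates with 95% intervals over 8 arrays, and open red circles are the estimates without untreated 1. Most points sit near 0, Cox6b2 and Cox6a2 lie highest, and Uqcrc1, Atp5g3 and Cyc1 lie lowest.

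Complex II showed no detected difference in any of its subunit genes. Sdha, the flavoprotein that oxidises succinate, had 3688, 4030.5, 3479 and 3401 on milrinone arrays 1 to 4, against 3448, 3620.1, 4089.6 and 3597 on untreated arrays 1 to 4, so the groups overlapped. It differed by -0.015 (SE 0.094, 95% interval -0.22 to 0.19, adjusted p = 0.960). Another probe set of Sdha had 812, 699, 711 and 586 on milrinone arrays 1 to 4, against 2403, 686, 1013 and 642 on untreated arrays 1 to 4, with untreated 1 far above the other 7 arrays, and differed by -0.54 with that array and by -0.13 without it. The remaining probe sets of Sdha had 1 value in all, 10.2 on untreated 1. Sdhc and Sdhd, which anchor the enzyme in the inner membrane, differed by 0.10 and -0.031, and Sdhc was -0.11 under quantile normalization. A dimmer probe set of Sdhd differed by 0.093, and one of Sdhc was listed only on untreated 1 and 3, at 383 and 370.5. Sdhb, the iron-sulfur subunit, had the smallest p of this complex, with 1518, 1772, 1552 and 1713 on milrinone arrays 1 to 4, against 3458, 1945, 1771 and 2232 on untreated arrays 1 to 4. The lowest untreated value, on replicate 3, lay just under the highest milrinone value, so the groups overlapped narrowly. Sdhb differed by -0.47 (SE 0.19, 95% interval -0.89 to -0.049, adjusted p = 0.495), or by -0.27 without untreated 1 (limma adjusted p = 0.604).

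In complex III the lowest difference was that of Uqcrc1. Uqcrc1, one of the core proteins of the matrix side, was dim and had 122, 139, 89.5 and 189 on milrinone arrays 1 to 4, against 1078, 379.8, 238 and 209 on untreated arrays 1 to 4. All milrinone values lay below all untreated ones, and untreated 1 was far above the rest. Uqcrc1 averaged 135 ± 41.5 in milrinone and 476 ± 408 in untreated samples (SD, n = 4 each) and differed by -1.43 (SE 0.44, 95% interval -2.41 to -0.46, adjusted p = 0.460), or by -0.95 without untreated 1 (limma adjusted p = 0.359). Its partner core protein Uqcrc2 had 5991, 5811, 5776 and 5240.4 on milrinone arrays 1 to 4, against 5484, 5398, 5265 and 7013 on untreated arrays 1 to 4. These values overlapped, and Uqcrc2 differed by -0.013, with -0.29 for a second probe set. The difference between the core proteins was not tested. Cyc1, cytochrome c1, which gives electrons to cytochrome c, had 615, 533, 626 and 628 on milrinone arrays 1 to 4, against 2506, 1009, 781 and 779 on untreated arrays 1 to 4. The milrinone values were close together and all below the untreated ones. Cyc1 differed by -0.88 (SE 0.32, 95% interval -1.60 to -0.16, adjusted p = 0.480), or by -0.49 without untreated 1 (limma adjusted p = 0.415). Uqcrfs1, the Rieske iron-sulfur protein that carries electrons to cytochrome c1, had 1363, 1750.1, 1474 and 1613 on milrinone arrays 1 to 4, against 2655, 2058, 1704 and 1445 on untreated arrays 1 to 4 and overlapped, with a difference of -0.31 and of -0.15 without untreated 1.

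Among the small subunits of complex III, Uqcrb had the smallest p of the complex. It had 10808, 11304, 11657 and 11056 on milrinone arrays 1 to 4, against 15008, 12397, 12319 and 14263 on untreated arrays 1 to 4, with every milrinone array below every untreated one and little spread within milrinone. Uqcrb differed by -0.26 (SE 0.074, 95% interval -0.43 to -0.099, adjusted p = 0.431), by -0.21 without untreated 1, and by -0.33 with its dimmer probe set, whose groups overlapped. Uqcrq differed by 0.18, Uqcr11 by 0.022, Uqcr10 by 0.022 and the hinge protein Uqcrh, which sits where cytochrome c docks, by -0.0030, or by 0.18 with its dimmer probe set. Without untreated 1 the first 3 of these differed by 0.26, 0.26 and 0.31, and without untreated 3 Uqcrq differed by 0.054. A second probe set of Uqcr10 was listed on all 4 untreated arrays, at 443, 262, 264 and 204, and on 0 milrinone arrays, while its brighter probe set had 1394, 1461, 1084 and 1119.5 on milrinone arrays 1 to 4, against 2264, 1109, 984 and 939 on untreated arrays 1 to 4 and overlapped. An empty cell sets no upper limit, so no fold is given, and 0.471% of all probe sets were listed in this way. The other 3 probe sets of Uqcrq had at most 3 values each, between 34.5 and 77.5, and another of Uqcr10 had none.

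**Figure D2:**
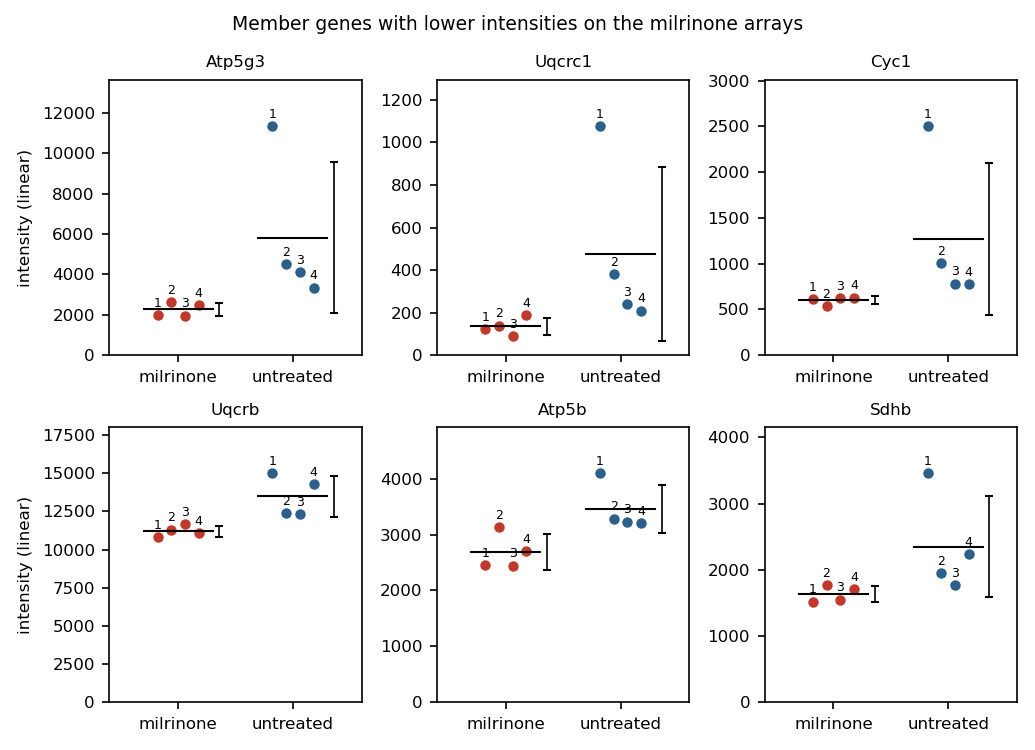
Deposited intensity (linear, vertical axes from 0) of Atp5g3, Uqcrc1, Cyc1, Uqcrb, Atp5b and Sdhb on each milrinone array (red, left) and untreated array (blue, right); numbers are replicates, lines are means and bars are ± 1 SD. Untreated 1 is the highest array in each panel, and only for Sdhb do the groups overlap.

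Cytochrome c itself, encoded by Cycs, differed little between the groups. Its brightest probe set had 6606, 6753, 7003 and 6962 on milrinone arrays 1 to 4, against 6304, 5678, 6704 and 7594 on untreated arrays 1 to 4, and it differed by 0.064 (SE 0.091, 95% interval -0.14 to 0.26, adjusted p = 0.811), which was -0.0060 under quantile normalization. The second differed by 0.061. The dimmest tested probe set of Cycs differed more, with 145, 142, 173 and 245 on milrinone arrays 1 to 4, against 675, 368, 209 and 228 on untreated arrays 1 to 4 and a difference of -0.88, or -0.55 without untreated 1, and the last was empty on all arrays. Cyct, the cytochrome c isoform of testis, which is no member by symbol, had 275, 263, 366 and 289.8 on milrinone arrays 1 to 4, against 207, 231, 240.0 and 236 on untreated arrays 1 to 4. Its milrinone values all lay above its untreated ones, and it differed by 0.35 (SE 0.15, limma adjusted p = 0.508).

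Complex IV held the highest differences of the 43 genes, both in tissue isoforms. Cox6b2, the isoform of subunit 6B known from testis, had 896, 934, 837 and 647 on milrinone arrays 1 to 4, against 572, 591, 609 and 503 on untreated arrays 1 to 4. The lowest milrinone value, on replicate 4, lay above the highest untreated one. Cox6b2 averaged 829 ± 127 in milrinone and 569 ± 46.2 in untreated samples (SD, n = 4 each) and differed by 0.52 (SE 0.15, 95% interval 0.18 to 0.86, adjusted p = 0.456), by 0.52 without untreated 1, and by 0.30 to 0.63 over the alternatives. Its widely expressed partner Cox6b1 had 7256, 6003, 5392 and 4743 on milrinone arrays 1 to 4, against 8439, 4638, 5208 and 4458 on untreated arrays 1 to 4. These overlapped, and Cox6b1 differed by 0.073, by 0.28 without untreated 1, and by -0.043 with its dimmer probe set.

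Cox6a2, the isoform of subunit 6A known from heart and skeletal muscle, had higher values in milrinone with its brighter probe set and was listed only there with its dimmer one. The brighter one had 1533, 1231, 1179 and 983 on milrinone arrays 1 to 4, against 814, 1060.2, 908 and 746 on untreated arrays 1 to 4, where milrinone 4 lay below untreated 2, so the groups overlapped. It averaged 1231 ± 228 in milrinone and 882 ± 136 in untreated samples (SD, n = 4 each) and differed by 0.47 (SE 0.17, 95% interval 0.097 to 0.84, adjusted p = 0.479), by 0.43 without untreated 1 and by 0.26 under quantile normalization. The dimmer one was listed at 358, 270.1, 258 and 233 on milrinone arrays 1 to 4 and was empty on every untreated array. Only 15 of 45037 probe sets, 0.0333%, were listed on all 4 milrinone and 0 untreated arrays, and the empty cells set no bound on the untreated level. Cox6a1, the widely expressed partner, had 13432, 12680.0, 12834 and 12432 on milrinone arrays 1 to 4, against 15224, 12707, 12567 and 10280.0 on untreated arrays 1 to 4 and differed by 0.030, with -0.024 for its second probe set. Markers of striated and smooth muscle were listed for 1 to 3 of 19 probe sets in milrinone and 2 to 6 in untreated samples. The striated muscle genes Acta1, Actc1, Ckm and Myh7 were empty on all 8 arrays. Of the others, Myl2 was listed on milrinone 1 and 4 at 75.1 and 64.3 and on all untreated arrays at 46.7 to 53.2. Tnnt2 was listed on untreated 1 and 2, Myh6 on untreated 2, and Des on milrinone 1 and 4 and untreated 2. Myh11, a smooth muscle gene, was listed on all 8 arrays with 1 probe set. Its values were 724 to 984 in milrinone and 696 to 951 in untreated samples, so the groups overlapped. On milrinone 2 and 3 it was the only listed marker of this list. The list summed to 851 to 984 in milrinone, 877 to 1490 on untreated 2 to 4 and 8787 on untreated 1. On that array the smooth muscle gene Acta2 had 6339.

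**Figure D3:**
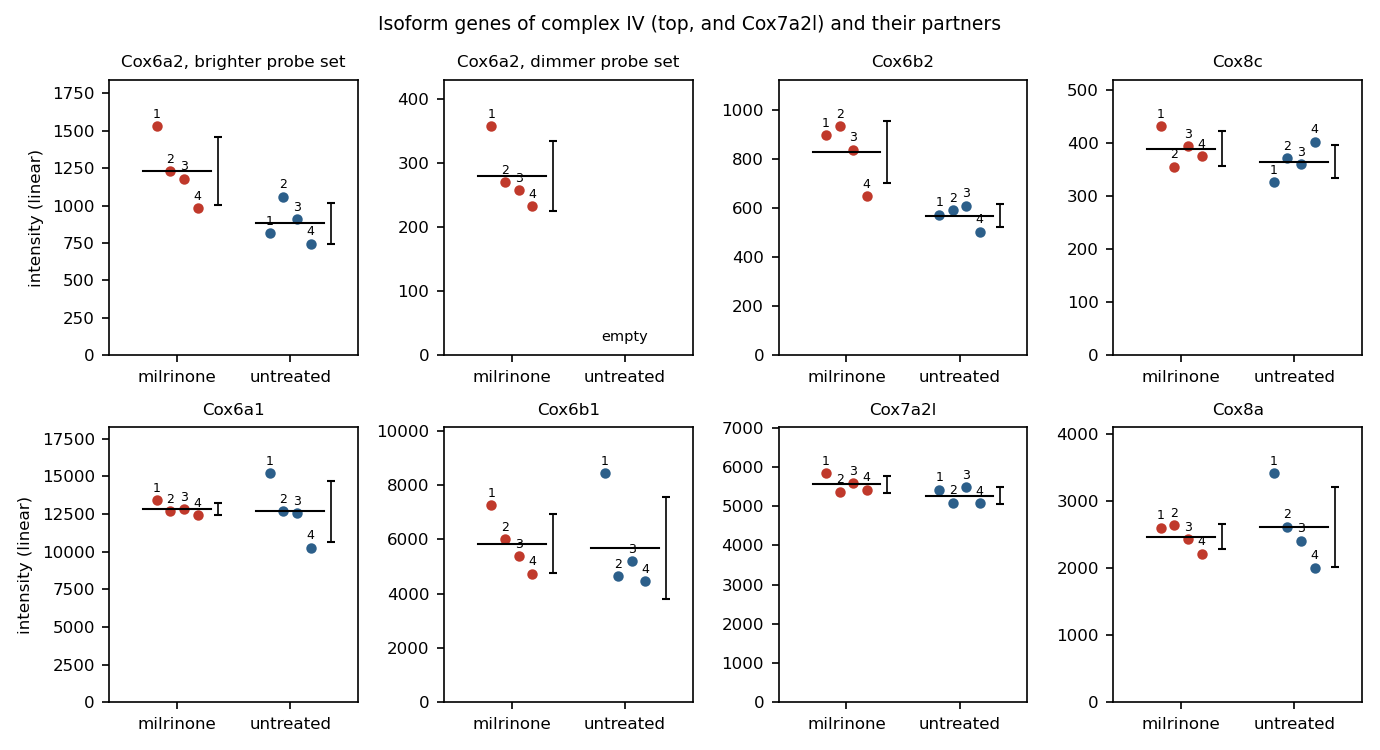
Deposited intensity (linear, vertical axes from 0) of both probe sets of Cox6a2, of Cox6b2, Cox8c and Cox7a2l, and of the partners Cox6a1, Cox6b1 and Cox8a on each milrinone array (red, left) and untreated array (blue, right); numbers are replicates, lines are means and bars are ± 1 SD. Cox6b2 is higher on every milrinone array, the dimmer Cox6a2 probe set is empty on the untreated arrays, and the partners overlap.

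The other tissue isoforms of complex IV overlapped between the groups or were rarely listed. Cox8c, an isoform of subunit 8 known from testis, had 433, 356, 394 and 376 on milrinone arrays 1 to 4, against 327, 372, 360.4 and 403 on untreated arrays 1 to 4. The groups overlapped, and Cox8c differed by 0.089 (SE 0.14, 95% interval -0.22 to 0.40, adjusted p = 0.828), or by -0.15 under quantile normalization, while its second probe set was empty on all arrays. Its partner Cox8a differed by -0.057, by 0.016 with a second probe set and by 0.080 without untreated 1, and its last probe set was empty. Cox4i2, the isoform of subunit 4 best known from lung, was listed on 1 array, milrinone 4, at 112, whereas Cox4i1 was listed on all 8 and differed by 0.025. Cox7a1, the heart and muscle isoform of subunit 7A, was listed on milrinone 1 at 57.6 and on untreated 1 and 4 at 211 and 55.2. Its partner Cox7a2 differed by -0.0052 and 0.0019 with its pair of probe sets. Cox7a2l, a relative of subunit 7A that helps complex III and complex IV join in supercomplexes, differed by 0.077, 0.063 and -0.039 with its 3 probe sets. Cox8b, the heart and muscle isoform of subunit 8, and Cox7b2 were empty on all 8 arrays. Cox7c, which belongs to no isoform pair here, was listed once, on untreated 1 at 21.0, and its other probe set was empty.

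The tested nuclear subunits of complex IV with no isoform partner lay close to 0. Cox5a, a subunit on the matrix side of the enzyme, had 9868, 11813, 10442 and 10597 on milrinone arrays 1 to 4, against 9521, 10461, 10693 and 8899 on untreated arrays 1 to 4 and differed by 0.11, 0.14 and 0.14 with its 3 probe sets. The brightest of them differed by 0.061 without untreated 4 and by 0.062 without milrinone 2. Cox5b, which carries a zinc ion, differed by -0.057 to 0.021 over 4 tested probe sets, and 2 others were empty throughout. Cox6c differed by -0.12 and 0.018, and the brighter of these probe sets by 0.0091 without untreated 1. Over the 12 tested genes of complex IV the differences ran from -0.12 to 0.52, with 9 above 0 and 3 below. There were 12 above 0 without untreated 1 and 4 under quantile normalization. Among all 9454 tested genes 5942 were above 0, or 5363 without untreated 1.

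In complex V the groups did not overlap for 1 gene of the catalytic head, lower in milrinone, as were 2.74% of all tested probe sets. Atp5b, the beta subunit that makes ATP, had 2454, 3134, 2445 and 2701 on milrinone arrays 1 to 4, against 4098, 3283, 3233 and 3205 on untreated arrays 1 to 4, so that the highest milrinone value, on replicate 2, lay just below the lowest untreated one. It differed by -0.36 (SE 0.12, 95% interval -0.63 to -0.095, adjusted p = 0.460), or by -0.28 without untreated 1. Atp5a1, the alpha subunit that alternates with beta in the head, differed by 0.0055 with its brightest probe set, by -0.20 with the second and by 0.25 with the dimmest. The gamma subunit gene Atp5c1, the rotating shaft, differed by -0.21 and the delta subunit gene Atp5d by -0.35 and -0.50. Untreated 1 was the highest array for both, and without it the brightest probe sets of Atp5c1 and Atp5d differed by -9.0e-05 and -0.015. Atp5e, the epsilon subunit, had 4025, 3746, 3326 and 3725 on milrinone arrays 1 to 4, against 3655, 2973, 3283 and 2412 on untreated arrays 1 to 4, and differed by 0.28, by 0.37 without untreated 1, by 0.17 without untreated 4 and by 0.15 under quantile normalization. Its groups overlapped.

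The ring of c subunits that turns as protons pass is encoded by Atp5g1, Atp5g2 and Atp5g3, whose products are known to share 1 mature protein and to differ in the import sequence that is removed. Atp5g3 had the smallest p of all members, with 1992, 2627, 1960.0 and 2479 on milrinone arrays 1 to 4, against 11370.4, 4504, 4107 and 3352 on untreated arrays 1 to 4. All milrinone values lay below all untreated ones, and untreated 1 was far above the other untreated arrays. Atp5g3 averaged 2265 ± 339 in milrinone and 5833 ± 3722 in untreated samples (SD, n = 4 each) and differed by -1.19 (SE 0.32, 95% interval -1.89 to -0.49, adjusted p = 0.402). Without untreated 1 the difference was -0.81 (limma adjusted p = 0.0586), and with array weights it was -1.02 and passed (limma adjusted p = 0.0250). Atp5g1 had 2896, 2824, 2578 and 2179 on milrinone arrays 1 to 4, against 2689.7, 2443, 2574 and 3060.0 on untreated arrays 1 to 4, and Atp5g2 had 2924, 3048, 2737 and 2364 on milrinone arrays 1 to 4, against 3882, 2893, 3011 and 2647 on untreated arrays 1 to 4. Both overlapped, with differences of -0.043 and -0.16, or of -0.041 and -0.046 without untreated 1, and 3 further probe sets of these genes were empty on all arrays. The summed intensity of the granulosa, cumulus and theca markers given above was also highest on untreated 1 and lowest in milrinone. The part of these cells in the lower values of Atp5g3, Uqcrc1 and Cyc1 was not tested.

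The stalk and membrane parts of complex V held 2 probe sets that lay wholly higher in milrinone, as did 5.06% of all tested probe sets. Atp5l, the g subunit of the membrane part, had 1892, 1948, 1919 and 2106 on milrinone arrays 1 to 4, against 1730.2, 1793, 1571 and 1069 on untreated arrays 1 to 4, with the low value of untreated 4 widening the gap. It differed by 0.38 (SE 0.16, 95% interval 0.017 to 0.73, adjusted p = 0.509), by 0.21 without untreated 4 and by 0.20 under quantile normalization. Atp5j2, the f subunit, had 4685, 5064, 4694 and 4569 on milrinone arrays 1 to 4, against 4240.4, 3962, 4010.2 and 4533 on untreated arrays 1 to 4 with the dimmer of its tested probe sets, a difference of 0.18 (limma adjusted p = 0.514), while its brighter probe set overlapped and differed by 0.077. The last probe set of Atp5j2 was listed once, on untreated 4 at 176. Atp5j, which encodes coupling factor 6 of the peripheral stalk, had 2713, 2609.8, 2448 and 2266 on milrinone arrays 1 to 4, against 6713, 2842, 2607 and 2762 on untreated arrays 1 to 4. It differed by -0.45, or by -0.13 without untreated 1. The peripheral stalk genes Atp5h, Atp5o and Atp5pb differed by -0.0038, -0.10 and -0.097, and the membrane part genes Atp5k, Atp5md and Atp5mpl by 0.0095, 0.00048 and 0.017. Without untreated 1 Atp5o differed by -0.034 and Atp5pb by 0.084. Other tested probe sets of Atp5h, Atp5k, Atp5o and Atp5pb differed by -0.39 to 0.076, and a second probe set of Atp5c1 was listed on untreated 1 and 3 only, at 52.0 and 57.8. In all, 21 of the 43 genes had several tested probe sets, and for 12 of them the signs of the differences were mixed. Many of these genes have processed pseudogenes that a short probe may also read, which was not tested.

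Ratios between isoforms were then compared within arrays, which removes any shift shared by the pair. Of 11 pairs listed, 7 had both genes tested, and Cox4i2, Cox7a1, Cox7b2 and Cox8b were listed too rarely. Different probe sets have no common scale, so each ratio is given relative to its own mean over the 8 arrays. For Cox6b2 over Cox6b1 the log2 ratios were 0.019, 0.35, 0.35 and 0.17 on milrinone arrays 1 to 4, against -0.83, 0.076, -0.047 and -0.092 on untreated arrays 1 to 4. Milrinone 1 lay below untreated 2, so the groups overlapped, and the difference was 0.45 (exact two-sided permutation p = 0.0571), or 0.24 without untreated 1. For Cox6a2 over Cox6a1 they were 0.48, 0.25, 0.18 and -0.038 in milrinone, against -0.60, 0.039, -0.17 and -0.15 in untreated samples. The difference was 0.44 (exact permutation p = 0.0571), or 0.31 without untreated 1. In both pairs untreated 1 was the lowest array. Cox8c over Cox8a differed by 0.15 and Cox7a2l over Cox7a2 by 0.082 (exact permutation p = 0.629 and 0.314).

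Among the c subunit genes, the ratio of Atp5g3 to Atp5g2 separated the groups. Its log2 values were -0.77, -0.44, -0.70 and -0.16 on milrinone arrays 1 to 4, against 1.32, 0.41, 0.22 and 0.11 on untreated arrays 1 to 4. The difference was -1.04 (exact permutation p = 0.0286, the smallest that 4 against 4 arrays allow), and without untreated 1 it was -0.77 (exact permutation p = 0.0571). Atp5g1 over Atp5g3 differed by 1.15 (exact permutation p = 0.0571) and Atp5g1 over Atp5g2 by 0.12 (exact permutation p = 0.514). Adjusted over the 7 pairs, no ratio passed, with an adjusted p of 0.100 for each of the pairs Atp5g3/Atp5g2, Atp5g1/Atp5g3, Cox6a2/Cox6a1 and Cox6b2/Cox6b1. With no exact p below 0.0286, a single separated pair could not pass this adjustment over 7 pairs. The adjusted values therefore decide nothing about a single pair.

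**Figure D4:**
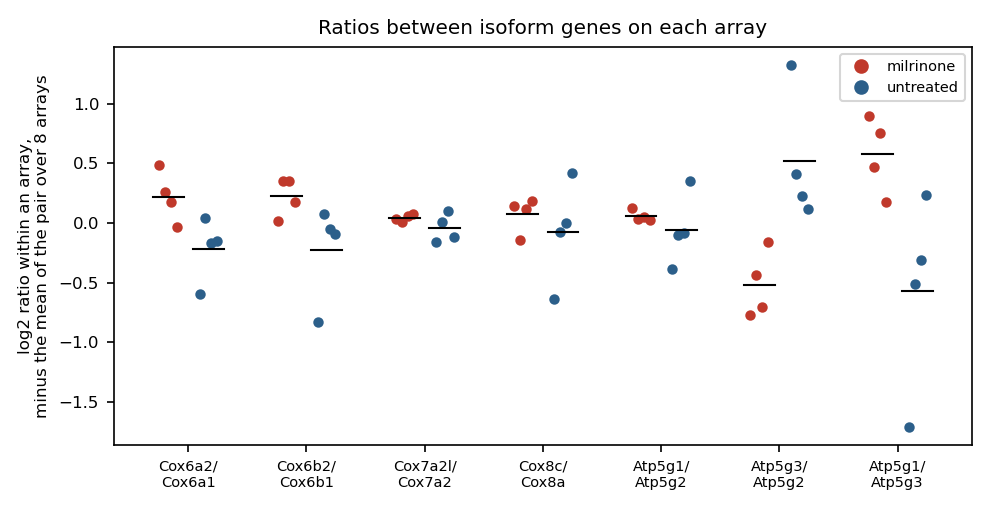
Log2 ratio of intensities between the genes of each of 7 pairs within an array, minus the mean of that pair over the 8 arrays (vertical axis), for milrinone (red, left) and untreated arrays (blue, right); lines are group means. Atp5g3/Atp5g2 is lower on every milrinone array, and the other pairs overlap.

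The promoters of Cox6b2, Cox6b1, Atp5g3 and Atp5g2 are shown because the genes of each pair encode the same subunit, Cox6b2 had the highest difference of the members and Atp5g3 the smallest p. They are the 250 bases before the start of each gene, from RefSeq on GRCm38.p6, 5′ to 3′ along the gene, all on the minus strand: chr7:4753095-4753344 for Cox6b2, chr7:30626115-30626364 for Cox6b1, chr2:73911327-73911576 for Atp5g3 and chr15:102671048-102671297 for Atp5g2. Capitals mark matches to the letters of NRF1 (GCGCATGCG) or of ETS factors such as GABPA (CCGGAAG), both known regulators of respiratory genes, or to the cAMP response element, CRE (TGACGTCA), on either strand.
Cox6b2: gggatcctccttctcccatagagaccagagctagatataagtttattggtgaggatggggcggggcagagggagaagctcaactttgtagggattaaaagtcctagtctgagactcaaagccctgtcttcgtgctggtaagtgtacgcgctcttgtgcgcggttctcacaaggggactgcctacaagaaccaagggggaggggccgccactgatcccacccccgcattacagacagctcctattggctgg
Cox6b1: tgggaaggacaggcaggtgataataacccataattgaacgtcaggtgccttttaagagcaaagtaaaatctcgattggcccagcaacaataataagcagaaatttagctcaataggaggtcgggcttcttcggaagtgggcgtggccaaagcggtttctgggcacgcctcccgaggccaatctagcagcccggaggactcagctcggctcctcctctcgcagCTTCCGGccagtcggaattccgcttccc
Atp5g3: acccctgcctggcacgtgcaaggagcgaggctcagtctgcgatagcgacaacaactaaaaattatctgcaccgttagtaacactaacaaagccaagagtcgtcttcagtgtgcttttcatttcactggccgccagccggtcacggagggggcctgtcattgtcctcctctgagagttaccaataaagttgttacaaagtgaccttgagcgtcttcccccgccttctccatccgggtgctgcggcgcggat
Atp5g2: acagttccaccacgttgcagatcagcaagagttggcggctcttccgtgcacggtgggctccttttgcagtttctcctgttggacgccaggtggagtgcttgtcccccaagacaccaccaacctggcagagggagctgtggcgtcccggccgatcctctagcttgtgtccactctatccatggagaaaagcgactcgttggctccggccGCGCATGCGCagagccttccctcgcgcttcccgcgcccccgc
Neither of these windows of Cox6b2 and Atp5g3 held any of the 3 motifs, whereas Cox6b1 held 1 ETS match and Atp5g2 1 NRF1 match. An entry was found for 36 of the 48 member genes, in 39 windows that also take in 50 bases after the start. The NRF1 letters were present in 7 of these windows, or 17.9%, and in 1.75% of 32851 windows of all genes. The ETS letters were present in 13, or 33.3%, against 8.86% of all, and the CRE letters in 2, or 5.13%, against 1.79%. The NRF1 windows belonged to Uqcr11, Uqcrc1, Cycs, Cox6a1, Atp5g2, Atp5k and Atp5l, whose differences ran from -1.43 for Uqcrc1 to 0.38 for Atp5l. A match is a description of the letters and not a site of binding.

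The excess of untreated 1 was itself uneven across the respiratory chain. Untreated 1 was the highest of the 8 arrays for 41 of the 71 tested member probe sets, 57.7%, against 17% of all tested probe sets. By gene, its excess over the mean of the other untreated arrays had a median of 0.33 on the log2 scale for the members, 0.28 for complex I genes, -0.016 for mitochondrial ribosomal protein genes and -0.13 for all tested genes. Within the members the median excess was 0.62 for complex III, 0.34 for complex V, 0.27 for complex IV and -0.074 for complex II. It was over 1 for 6 genes, Uqcrc1, Cyc1, Uqcr10, Atp5g3, Atp5d and Atp5j, and 5 of these, all but Uqcr10, had a difference below 0 over the other 7 arrays. An excess over 1 was found for 14.0% of the member genes and 5.38% of all tested genes. Of the 509 such genes among all tested, 78.0% had a difference below 0 without untreated 1, and the members' 5 of 6 is near that share. Among the member genes, each by its brightest probe set, the lowest excess was -0.20, for Cox8c. Next came Cox6a2 at -0.14, and Cox6b2 had 0.016. Between these lay Cycs, Cox5a, Sdha, Sdhc, Sdhd, Uqcrc2, Atp5g1 and Atp5j2. Across the 43 member genes the excess and the difference without untreated 1 had a Pearson r of -0.55, and across 9376 tested genes one of -0.27. These are descriptions across genes, which are not independent replicates. Both quantities subtract the mean of untreated 2 to 4, a shared term that by itself moves r upward.

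**Figure D5:**
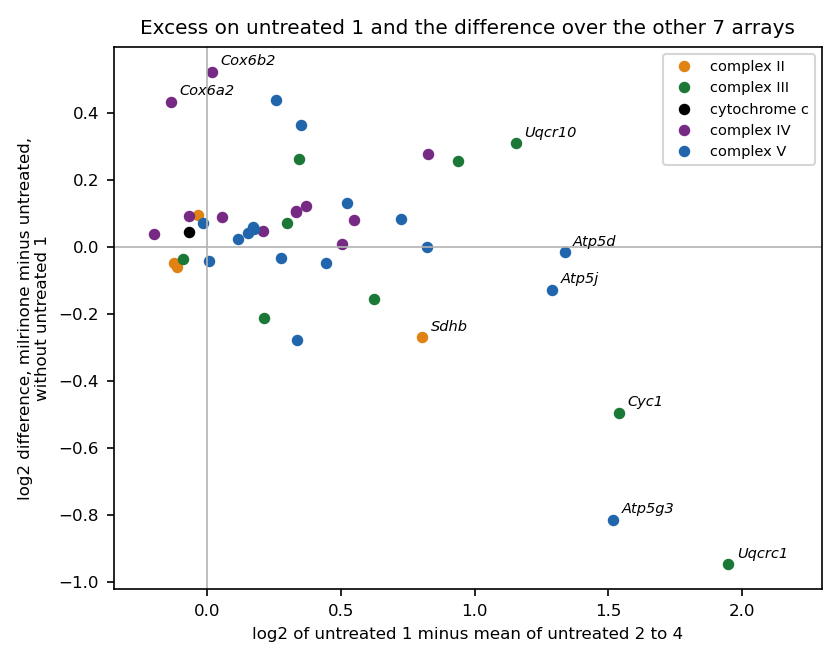
For each of the 43 tested member genes, the log2 excess of untreated 1 over the mean of untreated 2 to 4 (horizontal axis) against the log2 difference, milrinone minus untreated, without untreated 1 (vertical axis), coloured by complex. Uqcrc1, Atp5g3 and Cyc1 combine the largest excess with the lowest difference, and Cox6b2 and Cox6a2 lie near an excess of 0 with the highest difference or close to it.

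Genes that assemble or serve these complexes also gave no call. Of 35 listed assembly and partner genes 33 were on the array and 30 were tested, with a median difference of 0.011. By limma with adjustment 0 were higher and 0 lower, beside 0 and 12 of all 9454 tested genes. At an unadjusted limma p under 0.05 the counts were 1 and 2 of 30, beside 549 and 379 of 9454. The groups lay wholly apart for 1 higher gene, Cyct, and for 2 lower ones, Coa3 and Cox20, beside 488 and 272 of 9454. Coa3, a factor for the assembly of complex IV, had 293, 399, 318 and 377 on milrinone arrays 1 to 4, against 1713, 649, 435 and 485 on untreated arrays 1 to 4, wholly lower in milrinone, with a difference of -0.99, or -0.56 without untreated 1. Cox20 differed by -0.90, or by -0.36 without untreated 1, where its value of 879 lay far above the rest. Hccs, the lyase that attaches haem to cytochrome c, differed by -0.45, and -0.45 without untreated 1. The ATP synthase inhibitor gene Atpif1 differed by -0.24, or -0.055 without untreated 1, and the complex IV assembly gene Surf1 by 0.078. Of 7 regulators of mitochondrial genes 4 were tested and 0 passed (limma), with differences of 0.34 for Ppargc1b, 0.19 for Polrmt, 0.13 for Tfam and 0.076 for Nrf1, which was -0.084 without untreated 1, and 0 had an unadjusted p under 0.05. None of the 6 mitochondrially encoded subunits of complexes III to V was found among the gene symbols, and they were not analysed here.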

How the data were processed

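The values are linear intensity per probe set as the authors deposited them, with the software, the scaling and the rule behind empty cells not given in the sources used here. Their scaling was kept. Gene names come from the platform annotation (34945 probe sets with 1 symbol, 932 with several, 9160 with none), and all 48 member genes matched RefSeq by Entrez identifier. Log2(intensity + 16) was fitted two-sided by limma 3.58.1 under R 4.3.3, using lmFit and eBayes with trend, over the 16288 probe sets with 3 or 4 values in both groups, without the 64 controls, with empty cells left empty and Benjamini-Hochberg adjustment over all of them. The design was unpaired: same-numbered samples had correlations of -0.27 to 0.033 between their deviations from the group means. Isoform ratios were tested by exact two-sided permutation of arrays. On values simulated for these 16288 probe sets, the fit recovered 68% of probe sets changed 2-fold and 90% of those changed 4-fold, with 7 false among 184 calls. The simulated noise was normal and independent between probe sets, with a probe set's spread equal on all arrays. It lacks the deviation of untreated 1 that many genes share, so these shares may not hold for the real arrays. The number of arrays, 4 a group, limits the precision, and the median SE was 0.12 for members. The genes named in full are, in each complex, the 5 with the smallest p and the 2 with the smallest difference, the isoform pairs and the untested genes. The members and lists were chosen with earlier results of these data known. Figures used Python 3.11.15 with matplotlib 3.10.9. Alternatives to the pseudocount, scaling, filters, empty cells, variance model, weights, pairing and arrays used were run.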

Additional observations from a re-analysis of the deposited data

Results flagged for a closer look

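In 7 of 100 groups of 4 arrays (the brightest probe set of each tested member gene and the isoform ratios), 1 array lay far from the other 3, where chance picks out about 1 in 20, or 5. The values here are the gap of that array divided by the range of its group. Untreated 1 was far above the other untreated arrays for 4 genes of complex V, with 0.937 for Atp5d, 0.909 for Atp5j, 0.902 for Atp5b and 0.832 for Atp5c1. Untreated 4 was high for Uqcrc2 (0.858), which its second probe set also showed, at 4698 against 2938 to 2957 on the other untreated arrays. Milrinone 2 was low for Cyc1 (0.869) and for Atp5a1 (0.918), in groups whose ranges of intensity were narrow, 533 to 628 and 6625 to 6779.7.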

How the results depend on the processing

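Of 33 named genes, 15 kept the sign of their difference under each alternative run, among them Cox6b2, Cox6a2, Atp5l, Atp5e, Atp5g3, Uqcrc1, Cyc1, Uqcrb, Atp5b and Sdhb, and 18 with small differences did not, for causes not tested. No member passed except Atp5g3 with array weights, where the count of member calls was 1. The count over all probe sets, 19, was 106 with array weights, 6 among the brighter tested probe sets, 5 with empty cells at 0, 12 among probe sets listed on all 8 arrays, 13 with the replicate block, and 9 (without milrinone 3) to 69 (without untreated 1) with 1 array left out. The block changed no call of a member. The member median ran from -0.15 to 0.047. Signs turned under quantile normalization (-0.11 for Sdhc, -0.0060 for Cycs, -0.012 for Cox7a2l, -0.0017 for Cox5b, -0.25 for Atp5md, -0.039 for Cox4i1, -0.00040 for Cox6a1 and -0.15 for Cox8c), median centring (-0.0083 for Cox5b, -0.029 for Atp5md and -0.0046 for Cox4i1), array weights (0.051 for Uqcrh, 0.068 for Uqcrc2, 0.057 for Cox7a2, 0.019 for Atp5h, -0.052 for Cox4i1 and 0.0061 for Atp5g1) and a pseudocount of 64 (-0.0011 for Atp5md). Leaving out 1 array at a time gave -0.13 to 0.049 for Sdhd, -0.064 to 0.035 for Sdha, -0.061 to 0.071 for Uqcrh, -0.055 to 0.082 for Uqcrc2 and -0.0037 to 0.14 for Cycs. The range was -0.19 to 0.0091 for Cox6c, -0.039 to 0.047 for Cox7a2, -0.040 to 0.10 for Cox5b, -0.10 to 0.13 for Atp5md and -0.045 to 0.037 for Atp5h. It was -0.098 to 0.11 for Cox4i1, -0.067 to 0.12 for Cox6a1, -0.036 to 0.28 for Cox6b1, -0.17 to 0.080 for Cox8a and -0.094 to 0.042 for Atp5g1. For the ratios, averaging all listed probe sets of a gene gave -0.57 for Cox6a2/Cox6a1, because its dimmer probe set enters the mean in milrinone only, and 0.50 for Cox6b2/Cox6b1 (exact permutation p = 0.0286). With 1 array left out they ran from 0.24 to 0.55 for Cox6b2/Cox6b1, -0.041 to 0.31 for Cox8c/Cox8a, 0.0050 to 0.25 for Atp5g1/Atp5g2, -1.17 to -0.77 for Atp5g3/Atp5g2 and 0.77 to 1.42 for Atp5g1/Atp5g3. Leaving out names that share the pattern only was not run, since the gene table gives no names. The dimmer probe sets of Cox6a2 and Uqcr10 have empty cells throughout 1 group, which limits them to a listing.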
